A study of Quercus suber with 11 samples.

Results

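The loci described here were those of cork oak (Quercus suber) annotated to proteins L3 to L13a of the large (60S) subunit of the cytosolic ribosome. Membership followed annotation: a locus was a member when its best Arabidopsis match was one of 39 genes. These genes belong to 14 protein families from RPL3 to RPL13a, and their list was drawn up with earlier results of these data known. Of these 39 genes, 24 annotated at least 1 locus, which gave 60 members among the 32024 loci of the table. A minimum mean rlog, log2 of 10, was reached by 39 members, annotated to 18 Arabidopsis genes, and these were tested among 22426 loci in all. Each of the 14 families had at least 1 tested member, and only RPL3 had no more than 1.

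The tissue was innercork, the newly made living side of the first (virgin) cork plank, which holds phellem (cork) cells and the phellogen (cork cambium) that produces them. It came from untreated wild trees of a forest in Girona, Spain, with 4 trees cut in April, at the start of the growing season, 3 in June, around its peak, and 4 in July, at an advanced stage. Every tree was sampled once and in 1 month only, so that a month cannot be told apart from any other difference between its trees. Polyadenylated RNA was sequenced to follow the cork transcriptome through the season. The values are rlog values, that is, read counts scaled between libraries on a log2 scale, with low counts drawn toward the mean of the locus. They were not divided by transcript length, so levels were compared between months and not between genes.

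The large ribosomal subunit joins amino acids into protein, and its proteins are made in the cytosol, carried into the nucleolus and fitted onto ribosomal RNA before the subunit is exported. Plants keep several gene copies of each of these proteins, and the genes for different proteins are usually expressed together, most strongly in dividing and growing tissues such as meristems. In Arabidopsis, loss of single copies of RPL5, RPL9 or RPL10a (the PIGGYBACK genes) alters leaf shape, so a change in 1 copy can be visible even where other copies remain.

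Among the April trees, April replicate 2 stood apart. Its mean correlation with the other April trees was 0.00248 on values centred per locus, against 0.15 to 0.26 for the other 3 April trees. The June and July trees were also little alike within their months by this measure (-0.067 to 0.084), with July replicate 4 the lowest of the 11. April replicate 2 also received the lowest weight of the 11 trees (0.26) when limma weighted trees by their spread, followed by July replicate 4 (0.40). It was the highest of all 11 trees in 25 of the 39 tested members. Most of the member counts, and the calls between months that change without it, are given in both forms. Replicates are separate trees, and an adjusted p below always refers to limma with Benjamini-Hochberg adjustment over the 22426 loci.

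As a set, the members had their lowest values in June. Of the 39 tested members, 30 had their lowest month mean in June (76.9%, against 32.1% of all loci tested), 6 in April and 3 in July. On the log2 scale the median difference June/April was -0.43, with 31 members lower in June, against a median of -0.02 over all loci tested. Between July and June the median was 0.39, with 35 members higher in July, against -0.00 over all loci. July and April differed little in the median (-0.04, with 23 members lower in July). June/April and July/April share the April trees, and June/April and July/June the June trees, so none of these is an independent repeat of another. Fewer cells of a type and less RNA per cell cannot be told apart in these bulk samples.

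Tree by tree, the median deviation of the members from their own mean over 11 trees was 0.11, 0.50, 0.05 and -0.04 in the 4 April trees, -0.36, -0.35 and -0.18 in the 3 June trees and 0.17, 0.09, 0.10 and 0.02 in the 4 July trees. By this median all June trees lay below all others, whereas April and July overlapped. The mean rlog of the 39 members did not set June apart. June replicate 3 had 10.574, above April replicate 3 (10.571), April replicate 4 (10.569) and July replicate 4 (10.545). Summed on the linear scale, the tested members reached 136219 to 203395 in the April trees, 112749 to 129699.7 in the June trees and 146067 to 159894 in the July trees. The highest of these sums was that of April replicate 2. Without that tree the median June/April difference was -0.26, with 25 of 39 members lower in June, and 24 members still had their lowest month mean in June, against 31.3% of all loci. The July/April median was then 0.09, and it was 0.0051 without July replicate 3, so the sign of the small difference between July and April rested on single trees.

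**Figure D1:**
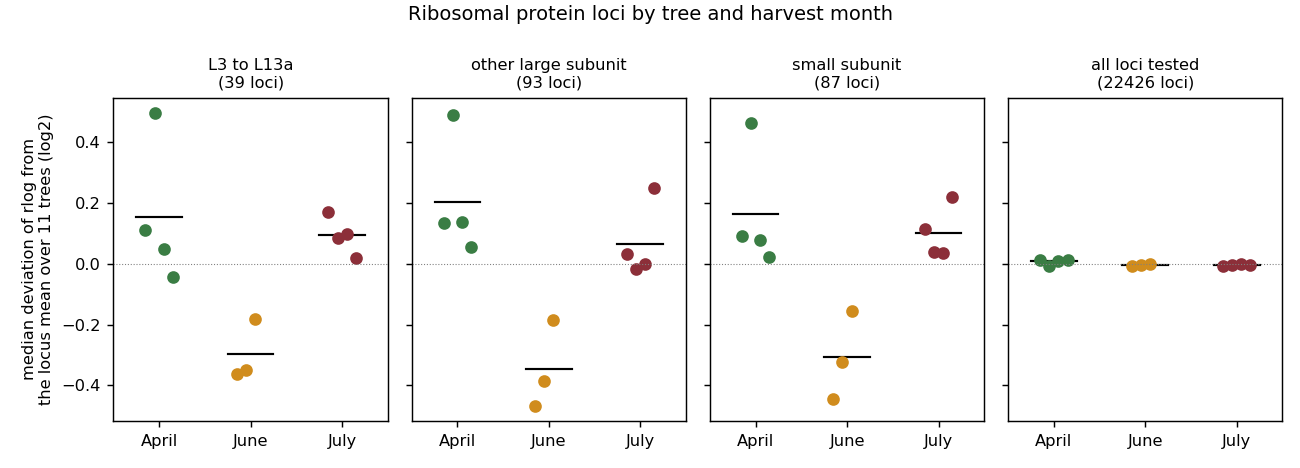
Median deviation of rlog from the mean of each locus over 11 trees (log2), for each tree (points) with the month mean (lines), in the 39 members, in 2 other lists of ribosomal proteins and in all 22426 loci tested. The 3 June trees lie between -0.36 and -0.18 in the members, below every April and July tree, while all trees lie near 0 over all loci.

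In June/April, 10 members (25.6%) were lower at an adjusted p of at most 0.05 and 0 were higher. Over all loci tested, 4.23% were lower by this criterion and 5.57% higher. The stricter criterion for DEGs, an adjusted p of at most 0.01 with an absolute log2FC above 1, was met by 2 members, both lower in June (0.464% of all loci, with 0.994% higher): RPL10a LOC112027288 and RPL6 LOC112034536. At an unadjusted p under 0.05, 18 members were lower and 0 higher (14.1% and 14.2% of all loci). In 17 members every June tree lay below every April tree and in 0 every June tree lay above (13% and 13.9% of all loci). With April replicate 2 left out, these counts were 18 and 3 (24.1% and 22.3% of all loci). Without April replicate 2, 13 members were lower and 0 higher at an adjusted p of at most 0.05, against 11.1% and 10.3% of all loci in the same fit. The DEGs were then RPL10a LOC112027288 and RPL12 LOC112022712 (log2FC -2.11, limma, adjusted p = 0.00641), whereas RPL6 LOC112034536 no longer passed the log2FC criterion (-0.95). The count was 4 without June replicate 1 and also 4 without June replicate 2, and the DEG count was 0 without any 1 of April replicates 1, 3 and 4, the June replicates or July replicate 2.

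In July/April, 3 members were lower at an adjusted p of at most 0.05 (5.73% of all loci) and 1 was higher (6.31%), and 0 were DEGs (0.754% lower and 1.28% higher over all loci). At an unadjusted p under 0.05, 7 members were lower and 3 higher (15.2% and 14.8% of all loci). These shares are near the background and are no result about the set. The members that were lower were RPL10a LOC112027288, RPL7a LOC112034675 and RPL9 LOC111984702, and the member that was higher was RPL10 LOC112007260. The groups did not overlap in 5 members that were lower in July and in 2 that were higher (8.78% and 8.7% of all loci). With April replicate 2 left out, these counts were 7 and 8 (18.1% and 16.1% of all loci). Without that tree, 5 members were lower and 4 higher at an adjusted p of at most 0.05 (12.1% and 10.7% of all loci in that fit). The DEG criterion was then met by 2, RPL10 LOC112007260 (log2FC 1.05) and RPL12 LOC112022712 (log2FC -1.72). Without July replicate 2, 1 member was lower.

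In July/June, 0 members passed an adjusted p of 0.05 in limma, in a comparison in which 0.00446% of all loci were higher in July and 0% lower. At an unadjusted p under 0.05, 17 members were higher in July and 0 lower (4.47% and 4.46% of all loci). In 18 members every July tree lay above every June tree, and in 0 every July tree lay below (5.11% and 5.58% of all loci). The lowest adjusted p of any member was 0.307, so no single member was shown to differ between July and June.

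**Figure D2:**
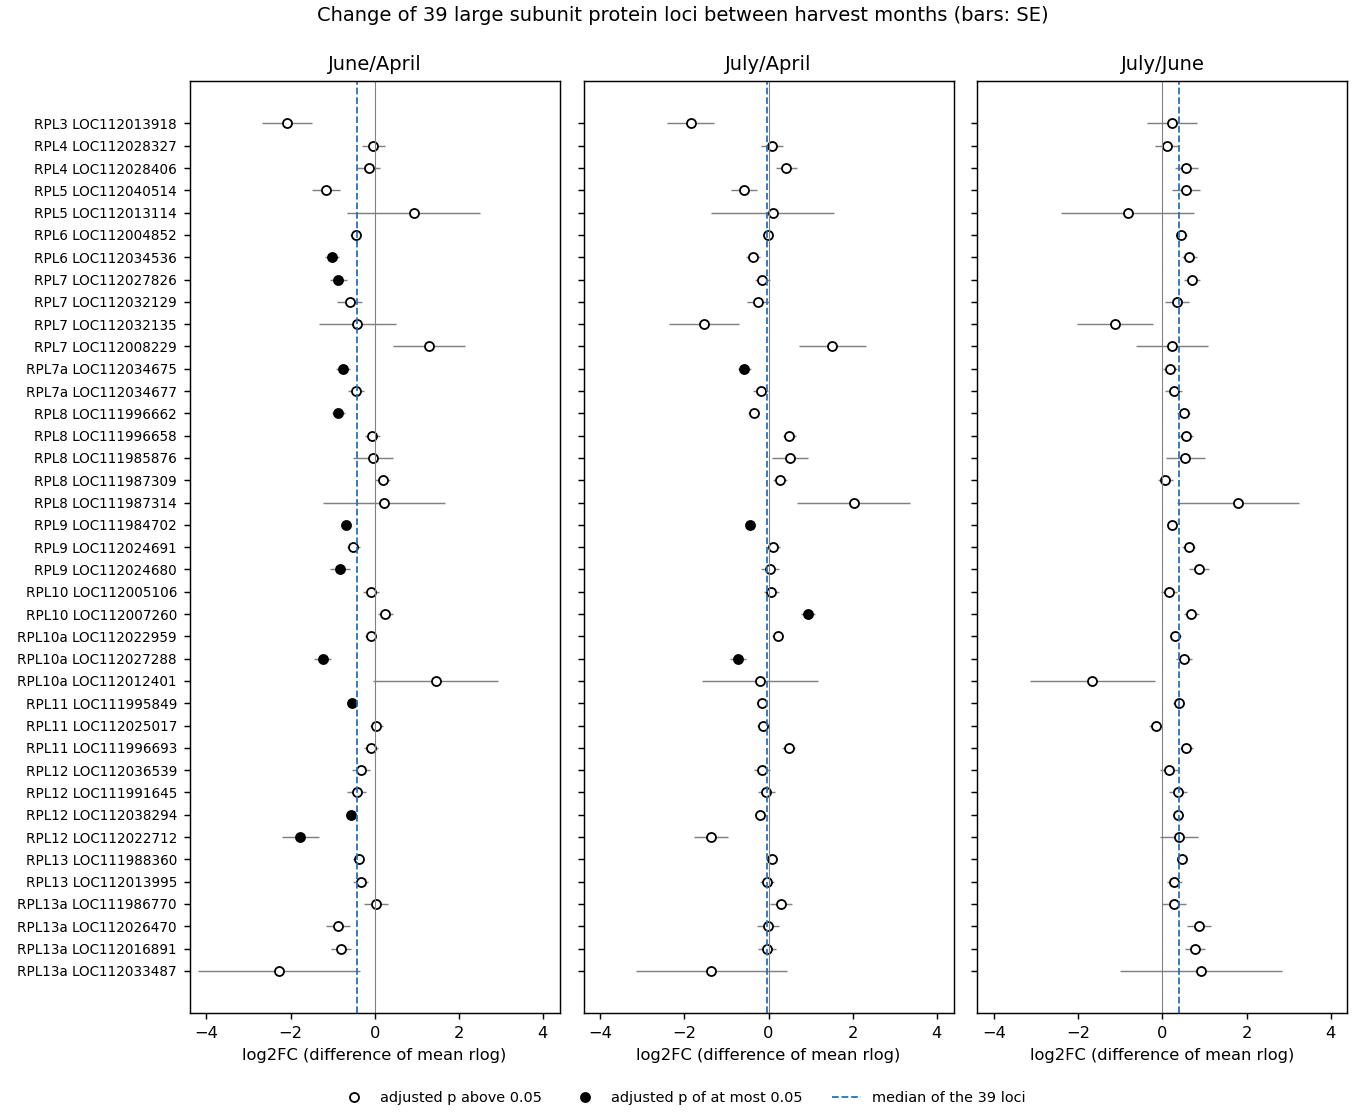
Difference of mean rlog (log2FC, points) with its SE (bars) for the 39 tested members in June/April, July/April and July/June. Filled points have an adjusted p of at most 0.05 (10, 4 and 0 members), and the dashed line is the median of the members (-0.43, -0.04 and 0.39).

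Summed by family on the linear scale, all 14 families were lower in June than in April, with June/April ratios from 0.268 in RPL3 to 0.940 in RPL10. Likewise all 14 were higher in July than in June, with ratios from 1.15 in RPL10 to 1.45 in RPL13a. In 9 families every June tree lay below every April tree, and in 9 every July tree lay above every June tree. The July/April ratio was under 1 in 8 families and ran from 0.333 in RPL3 to 1.18 in RPL4. The RPL3 ratios rest on 1 locus, LOC112013918, and leave out another RPL3 locus outside the chosen genes, described below. That locus had a mean rlog of 14.14, against 6.63 for LOC112013918, and differed by -0.35 in June/April and 0.19 in July/April. Without April replicate 2 the June/April ratio stayed under 1 in 12 families. It was then 1.1 in RPL4 and 1.08 in RPL10, so the direction of these 2 families rested on that tree. The July/April ratio was then under 1 in 6 families. These sums weight each family toward the copy with the highest values, take no account of transcript length and were not tested.

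**Figure D3:**
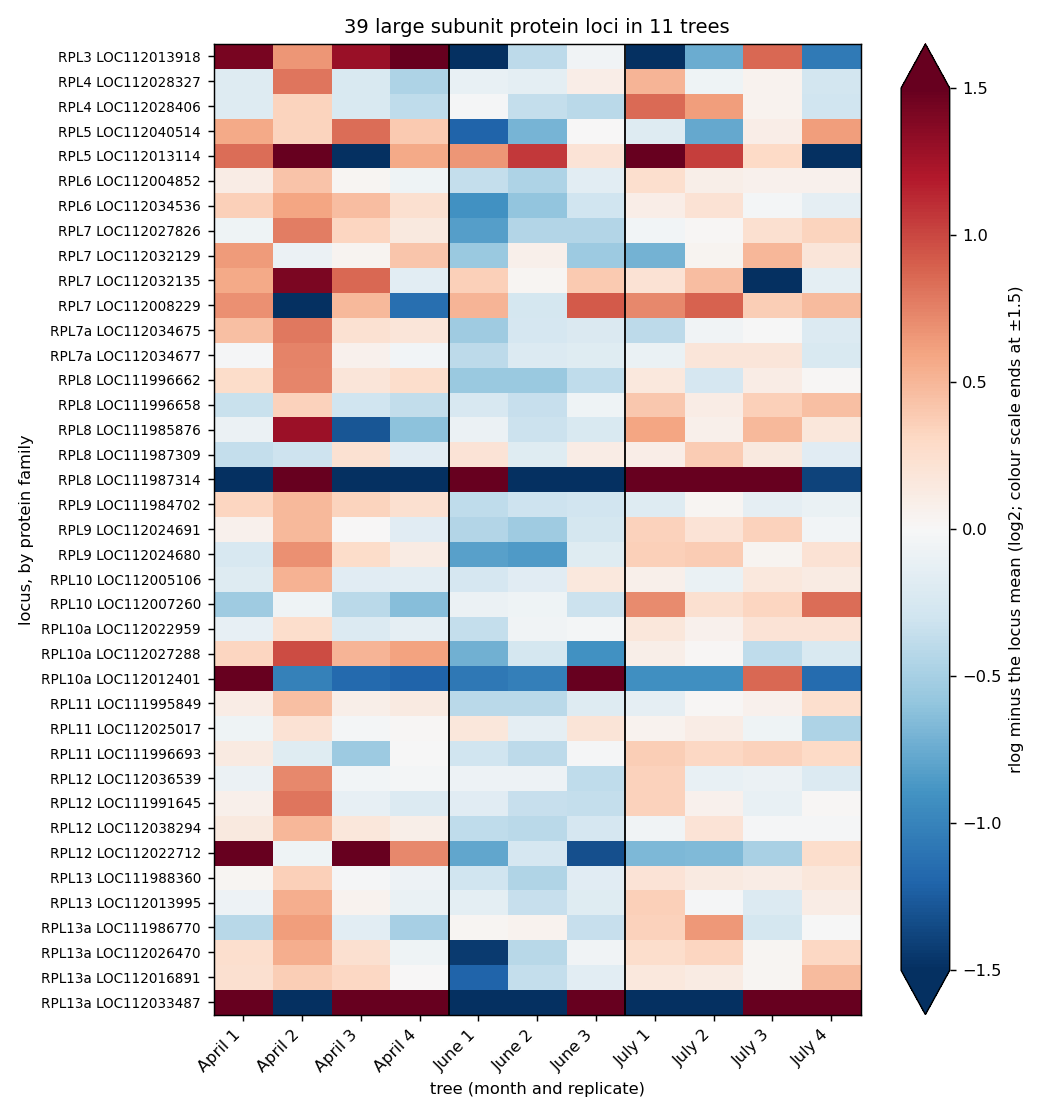
rlog of the 39 tested members in the 11 trees, minus the mean of each locus (log2, colour scale ending at ±1.5), with trees grouped by month and loci by family. Blue prevails in the June columns and red in the column of April replicate 2, and 6 rows change between trees within months instead.

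RPL5 and RPL11 bind the 5S ribosomal RNA and enter the subunit together with it, at its central protuberance. The main RPL5 locus, LOC112040514, annotated to AT5G39740, had rlog values of 13.32, 13.08, 13.59 and 13.15 in the April trees, 11.55, 12.05 and 12.75 in the June trees and 12.56, 11.98, 12.85 and 13.37 in the July trees (replicates in order of number here and below). Each June tree lay below each April tree, and July spanned the gap between them. The log2FC June/April was -1.16 ± 0.33 (SE) with an adjusted p of 0.053 in limma, just over the threshold of 0.05 (adjusted p = 0.0435 without April replicate 2). July/April gave -0.59 ± 0.31.

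RPL11 had 3 tested loci, all annotated to AT5G45775. LOC111995849 had 12.84, 13.17, 12.81 and 12.86 in April, 12.31, 12.32 and 12.52 in June and 12.59, 12.74, 12.78 and 12.97 in July. It fell by 0.54 ± 0.13 in June/April (limma, adjusted p = 0.0278), with every June tree below every April and July tree. This call was lost under 7 of 21 alternatives (limma, adjusted p up to 0.109), among them the loss of April replicate 1, April replicate 4 or any June tree. Its 2 other copies did not share this pattern in their values. LOC112025017 differed by 0.04 ± 0.15 in June/April and -0.16 ± 0.15 in July/June. LOC111996693 had 9.82 to 9.90 in the 4 July trees, above all June trees (9.13 to 9.50) and all April trees (8.98 to 9.66), with a July/April log2FC of 0.48 ± 0.15 that did not pass (limma, adjusted p = 0.0628).

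RPL3, RPL4, RPL8 and RPL10 reach toward the catalytic centre of the subunit or line the tunnel through which the new protein leaves. The single RPL3 locus of the set, LOC112013918 (annotated to AT1G43170), had a mean rlog of 6.63. Its values were 8.05, 7.30, 7.93 and 8.22 in April, 4.54, 6.24 and 6.57 in June and 5.14, 5.89, 7.49 and 5.56 in July. Every June tree lay below every April tree, and 1 July tree reached into the April range. The log2FC was -2.09 ± 0.60 in June/April (adjusted p = 0.0525 in limma) and -1.85 ± 0.55 in July/April (adjusted p = 0.0543). Without April replicate 2 both passed the looser threshold (limma, adjusted p = 0.0361 and 0.0401).

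Another RPL3 locus lay outside the chosen genes. LOC111998346, whose best match AT1G61580 is another Arabidopsis RPL3 gene that the selection did not list, had a mean rlog of 14.14. It had 14.13, 14.58, 14.07 and 13.91 in April, 13.77, 13.70 and 13.98 in June and 14.53, 14.36, 14.35 and 14.21 in July. The June/April log2FC was -0.35 ± 0.16, that of July/April 0.19 ± 0.15 and that of July/June 0.54 ± 0.16, none of which passed (limma, adjusted p = 0.181, 0.433 and 0.366). The RPL3 family ratios above therefore leave out this copy, which was singled out after its values were seen.

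RPL4 extends a loop into the exit tunnel, and in Arabidopsis its copies are also known from defects in protein sorting to the vacuole. Both tested loci, LOC112028327 and LOC112028406, were annotated to AT3G09630, and neither passed in any comparison. LOC112028327 differed by -0.03 ± 0.28 in June/April and 0.08 ± 0.26 in July/April. LOC112028406 differed by -0.14 ± 0.27 in June/April and had its 2 highest values in July replicates 1 and 2 (13.75 and 13.52). The 2 loci are 2 gene numbers apart, and April replicate 2 was the highest tree of LOC112028327 (13.76, against 12.49 to 12.76 in the other April trees).

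RPL8 is one of the most conserved ribosomal proteins, and its bacterial counterpart is needed for peptide bond formation. All 5 tested loci were annotated to AT4G36130, and they moved differently. LOC111996662 had 11.80, 12.26, 11.72 and 11.79 in April, 10.98, 10.98 and 11.15 in June and 11.69, 11.27, 11.64 and 11.54 in July. The 3 months did not overlap in this locus, with July between the others. It fell by 0.86 ± 0.15 in June/April (limma, adjusted p = 0.00854).

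Its neighbour LOC111996658, which lies 3 gene numbers away, had 11.17, 11.84, 11.20 and 11.14 in April, 11.26, 11.15 and 11.43 in June and 11.91, 11.61, 11.86 and 11.95 in July. It was thus high in July and alike in June and April, apart from April replicate 2. The July/April log2FC was 0.49 ± 0.16 with an adjusted p of 0.0718 in limma, and 0.66 ± 0.10 with an adjusted p of 0.00328 in limma without April replicate 2. Of the summed linear values of the RPL8 loci, LOC111996662 held 41.3% in April, 28.8% in June and 29.0% in July on average, and LOC111996658 held 28.0% in April, 34.2% in June and 35.6% in July. Another 2 loci that did not switch between trees had June/April differences within their SE or close to it: LOC111985876 differed by -0.04 ± 0.47 and LOC111987309 by 0.20 ± 0.18. In July/April LOC111985876 differed by 0.51 (limma, adjusted p = 0.468), and by 0.99 ± 0.25 without April replicate 2 (limma, adjusted p = 0.0221).

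RPL10 joins the subunit last, in the cytosol, and in Arabidopsis it is a target of the NIK1 receptor kinase in the response to viruses. LOC112005106, annotated to AT1G14320, had a mean rlog of 14.36. Its values were 14.17, 14.89, 14.19 and 14.20 in April, 14.11, 14.19 and 14.52 in June and 14.44, 14.27, 14.53 and 14.49 in July, and the months overlapped. The differences were -0.09 ± 0.19 in June/April and 0.07 ± 0.17 in July/April.

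LOC112007260, annotated to another RPL10 gene, AT1G26910, had 10.33, 10.80, 10.46 and 10.23 in April, 10.77, 10.80 and 10.54 in June and 11.58, 11.11, 11.19 and 11.70 in July. Every July tree lay above every other tree. It rose by 0.94 ± 0.17 in July/April (limma, adjusted p = 0.00739), the only member with a rise that passed, and it passed under all 21 alternatives tried. Its share of the summed linear values of RPL10 was 5.57% to 7.0% in the April trees, 5.97% to 8.99% in the June trees and 9.02% to 12.7% in the July trees.

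RPL10a and RPL12 build the 2 stalks of the subunit: RPL10a forms the L1 stalk at the site where used tRNA leaves, and RPL12 sits at the base of the stalk that recruits translation factors. LOC112027288, annotated to AT1G08360, had 11.04, 11.70, 11.23 and 11.33 in April, 10.00, 10.46 and 9.81 in June and 10.81, 10.74, 10.35 and 10.49 in July. Both June and July lay wholly below April. It fell by 1.23 ± 0.20 in June/April (limma, adjusted p = 0.0062) and by 0.73 ± 0.18 in July/April (limma, adjusted p = 0.03). At an adjusted p of at most 0.05 the June/April call held under all 21 alternatives. The July/April call was lost under 4 of 21 (limma, adjusted p up to 0.0773), the loss of April replicate 3, April replicate 4, July replicate 2 or July replicate 3.

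Another RPL10a locus, LOC112022959, had the same Arabidopsis match and a different course. Its values were 12.97, 13.35, 12.89 and 12.96 in April, 12.74, 13.03 and 13.06 in June and 13.26, 13.16, 13.30 and 13.30 in July. The June/April difference was -0.10 ± 0.13, and every July tree lay above every June tree without passing the test (0.31 ± 0.13, limma, adjusted p = 0.531). In July/April it differed by 0.22 (limma, adjusted p = 0.273), and by 0.32 ± 0.09 without April replicate 2 (limma, adjusted p = 0.04). LOC112027288 held 20.7% to 24.5% of the summed linear values of RPL10a in April, 8.81% to 14.3% in June and 11.4% to 15.8% in July.

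Among the 4 tested RPL12 loci, LOC112038294 fell by 0.57 ± 0.12 in June/April (limma, adjusted p = 0.0178). It had 11.28, 11.63, 11.30 and 11.21 in April, 10.75, 10.73 and 10.88 in June and 11.08, 11.34, 11.11 and 11.12 in July, and June stood clear of both other months. The call was lost under 2 of 21 alternatives, the loss of June replicate 1 or June replicate 2 (limma, adjusted p up to 0.0744). LOC112022712 fell by 1.76 ± 0.44 in June/April (limma, adjusted p = 0.0343), with 7.83, 6.07, 7.69 and 6.85 in April and 5.35, 5.87 and 4.81 in June. In July it had 5.45, 5.47, 5.64 and 6.39, and only July replicate 4 reached into the April range. The June/April call was lost under 8 of 20 alternatives (limma, adjusted p up to 0.117), among them the loss of April replicate 1, 3 or 4 or of any June tree. In July/April it differed by -1.37 (limma, adjusted p = 0.0553), and by -1.72 without April replicate 2 (limma, adjusted p = 0.00997). The 2 remaining loci, LOC112036539 and LOC111991645, had June/April differences of -0.32 ± 0.21 and -0.43 ± 0.22 that did not pass (limma, adjusted p = 0.345 and 0.23), and in both April replicate 2 was the highest tree.

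RPL6, RPL7, RPL7a, RPL9, RPL13 and RPL13a lie mostly toward the surface of the subunit, where they bind segments of ribosomal RNA. RPL6 LOC112034536, annotated to AT1G74060, had 8.28, 8.52, 8.39 and 8.17 in April, 7.02, 7.33 and 7.62 in June and 8.02, 8.14, 7.89 and 7.79 in July. The months did not overlap, with June lowest. It fell by 1.01 ± 0.18 in June/April (limma, adjusted p = 0.00869), and by 0.95 ± 0.18 without April replicate 2 (limma, adjusted p = 0.00794). The other RPL6 locus, LOC112004852 (AT1G74050), was likewise lowest in June, with a difference of -0.45 ± 0.13 that narrowly missed the threshold (limma, adjusted p = 0.0586, and 0.0411 without April replicate 2). It held 97.0% of the summed linear values of RPL6 in April on average, 97.9% in June and 97.6% in July.

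RPL7 had 4 tested loci, all annotated to AT3G13580. LOC112027826 had 11.64, 12.47, 12.03 and 11.86 in April, 10.88, 11.27 and 11.28 in June and 11.67, 11.72, 11.95 and 12.04 in July. June lay below both other months, and the locus fell by 0.86 ± 0.19 in June/April (limma, adjusted p = 0.0231). The call was lost under 5 of 21 alternatives (limma, adjusted p up to 0.0998), among them the loss of April replicate 3 or of any June tree. LOC112032129 differed by -0.60 ± 0.29 in June/April and did not pass (limma, adjusted p = 0.203).

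The 2 RPL7a loci, LOC112034675 and LOC112034677, are next to each other in gene number and were annotated to the same gene, AT3G62870. LOC112034675 had 12.999, 13.35, 12.78 and 12.74 in April, 12.02, 12.30 and 12.33 in June and 12.16, 12.50, 12.55 and 12.35 in July. June and July both lay below April and overlapped each other. It fell by 0.75 ± 0.16 in June/April (limma, adjusted p = 0.0212) and by 0.57 ± 0.15 in July/April (limma, adjusted p = 0.0357). The June/April call was lost without April replicate 1, June replicate 1 or June replicate 2 (limma, adjusted p up to 0.0927). The July/April call was lost under 9 of 21 alternatives (limma, adjusted p up to 0.0893), among them the loss of April replicate 1, June replicate 2, June replicate 3 or any July tree. LOC112034677 differed by -0.45 ± 0.19 in June/April (limma, adjusted p = 0.162) and -0.18 ± 0.18 in July/April, and did not pass.

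RPL9 LOC111984702, annotated to AT4G10450, was the steadiest of the members that changed. It had 12.97, 13.13, 12.98 and 12.88 in April, 12.26, 12.33 and 12.36 in June and 12.45, 12.68, 12.50 and 12.54 in July, so that the 3 months did not overlap. It fell by 0.67 ± 0.09 in June/April (limma, adjusted p = 0.00345) and by 0.45 ± 0.09 in July/April (limma, adjusted p = 0.0112), and both calls held under all 21 alternatives. The other RPL9 loci, LOC112024691 and LOC112024680, were annotated to AT1G33120 and lie 6 gene numbers apart. LOC112024680 fell by 0.83 ± 0.23 in June/April at an adjusted p of 0.05 in limma, right at the threshold, and lost this call under 16 of 21 alternatives (limma, adjusted p = 0.0517 without April replicate 2 and up to 0.17 over all of them). LOC112024691 had a June/April difference of -0.51 ± 0.16 that did not pass (limma, adjusted p = 0.0741), although no June tree reached the April or July range.

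Both RPL13 loci were annotated to AT3G49010 and neither passed. LOC111988360 had 13.23, 13.56, 13.18 and 13.13 in April, 12.90, 12.75 and 13.03 in June and 13.41, 13.34, 13.31 and 13.38 in July. June lay below both other months, with a June/April log2FC of -0.38 ± 0.12 (limma, adjusted p = 0.0729, and 0.0481 without April replicate 2). LOC112013995 differed by -0.33 ± 0.18 in June/April. Of the 4 RPL13a loci, LOC112026470 and LOC112016891 differed by -0.88 ± 0.28 and -0.80 ± 0.23 in June/April (limma, adjusted p = 0.0734 and 0.0557), and in each June replicate 1 was the lowest tree by far (8.47 and 7.39). LOC111986770 differed by 0.02 ± 0.29.

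To find members that departed from the rest, the mean rlog of the 39 tested members was subtracted tree by tree from every locus and the fit was repeated. Relative to the set, 4 members differed in June/April at an adjusted p of at most 0.05, 3 in July/April and 0 in July/June. Over all loci, whose values relative to the set shift as the set moves, 21.3% were higher and 0.883% lower in June/April, 4.98% higher and 1.67% lower in July/April, and 0.00446% higher and 0.0178% lower in July/June. In June/April, RPL10 LOC112007260 was higher than the set (0.67 ± 0.22, limma, adjusted p = 0.0488), while RPL10a LOC112027288 (-0.82 ± 0.24, limma, adjusted p = 0.0315), RPL6 LOC112034536 (-0.60 ± 0.18, limma, adjusted p = 0.0385) and RPL8 LOC111996662 (-0.44 ± 0.14, limma, adjusted p = 0.0432) were lower. In July/April, LOC112007260 (1.02 ± 0.20, limma, adjusted p = 0.0152) and RPL8 LOC111996658 (0.57 ± 0.14, limma, adjusted p = 0.0385) were higher, and RPL7a LOC112034675 (-0.49 ± 0.13, limma, adjusted p = 0.0469) was lower. With 39 members, the July/April departures in either direction were near the shares over all loci and are no result about the set. The upward departure in June/April was below its share over all loci.

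Of these departures, that of LOC112007260 in July/April passed under 22 of 23 alternatives, and the others under 7 to 16 of 23. Without April replicate 2, 5 members departed in June/April and also 5 in July/April. The June/April count was 0 without April replicate 4 or without June replicate 1. The neighbours LOC111996662 and LOC111996658 of RPL8, which have the same Arabidopsis match, departed in different comparisons. In June/April LOC111996658 did not pass relative to the set (0.36, limma, adjusted p = 0.115), and in July/April LOC111996662 did not (-0.27, limma, adjusted p = 0.225).

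**Figure D4:**
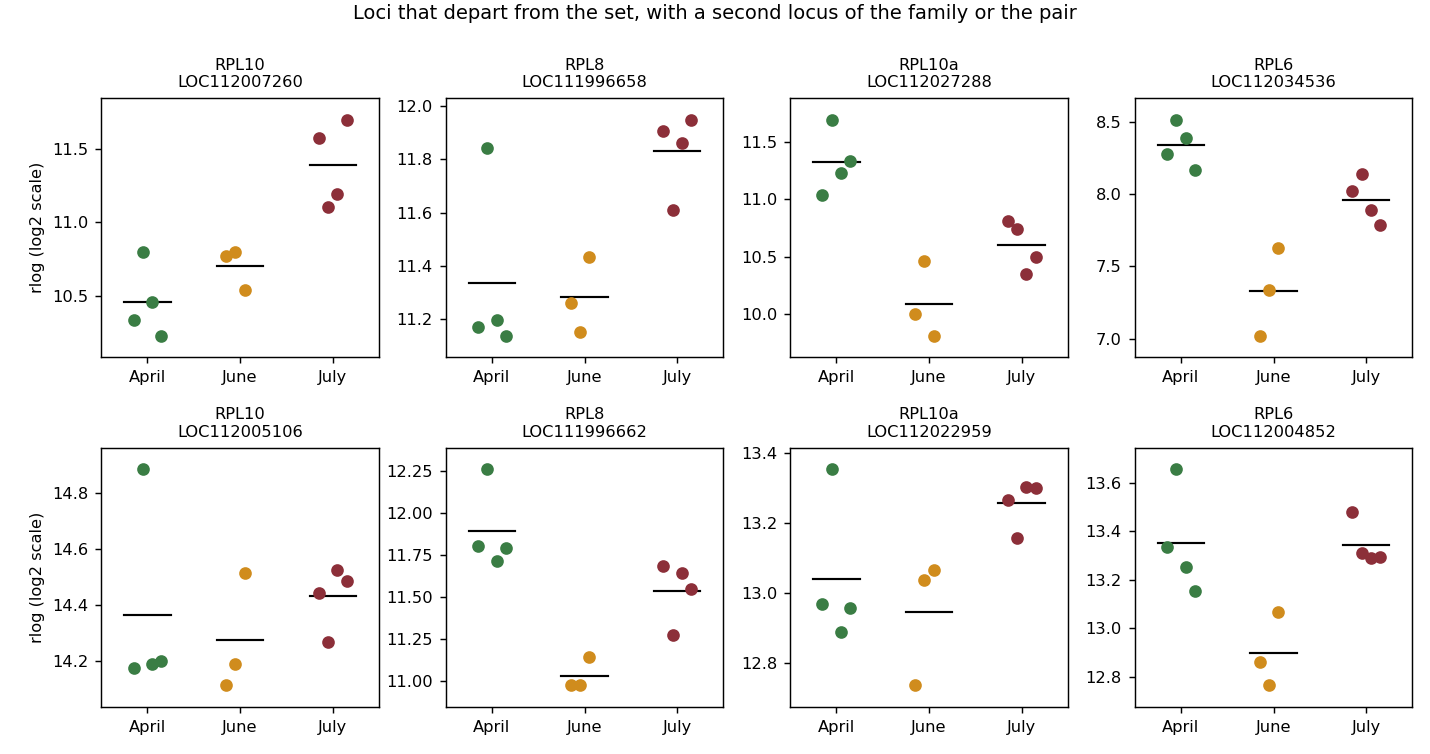
rlog by tree (points) and month mean (lines) for 4 members that departed from the set (upper row) and a further locus of the same family (lower row). In RPL10 LOC112007260 all July trees lie above the rest, in RPL10a LOC112027288 and RPL6 LOC112034536 June lies lowest, and April replicate 2 is the highest April tree in each lower panel.

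A further group of members differed strongly between trees of the same month. The residual SD of the tested members within months had a median of 0.27 (0.30 over all loci), and it was above 1 in 6 members. RPL13a LOC112033487 took 2 levels: 9.33 to 9.84 in April replicates 1, 3 and 4, June replicate 3 and July replicates 3 and 4, and 4.18 to 4.53 in the other 5 trees. RPL8 LOC111987314 had 7.09 to 8.13 in April replicate 2, June replicate 1 and July replicates 1, 2 and 3, and 3.10 to 3.80 in the other 6 trees. Both levels of each locus occurred in every month, and no value lay between them.

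RPL5 LOC112013114 had 5.999 in April replicate 3 and 6.83 in July replicate 4, against 10.79 to 12.62 in the other 9 trees. In those 2 trees the main RPL5 locus, LOC112040514, was at 13.59 and 13.37, its highest values of April and July. RPL7 LOC112032135 had 5.72 in July replicate 3, against 9.55 to 11.11 elsewhere, while LOC112032129, the next gene number, was at its July maximum there (12.02). RPL7 LOC112008229 had 5.69 in April replicate 2 and 8.22 in April replicate 4, against 9.09 to 10.27 in the other 9 trees. RPL10a LOC112012401, whose mean of 4.01 lay just above the minimum, had 6.11 in April replicate 1, 9.51 in June replicate 3, 4.88 in July replicate 3 and 2.80 to 3.09 elsewhere. In months that held both high and low trees, the month means of these 6 loci lay between them. Their log2FCs, among them the largest of the set in several comparisons, had SEs of 0.80 to 1.93 and did not pass.

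**Figure D5:**
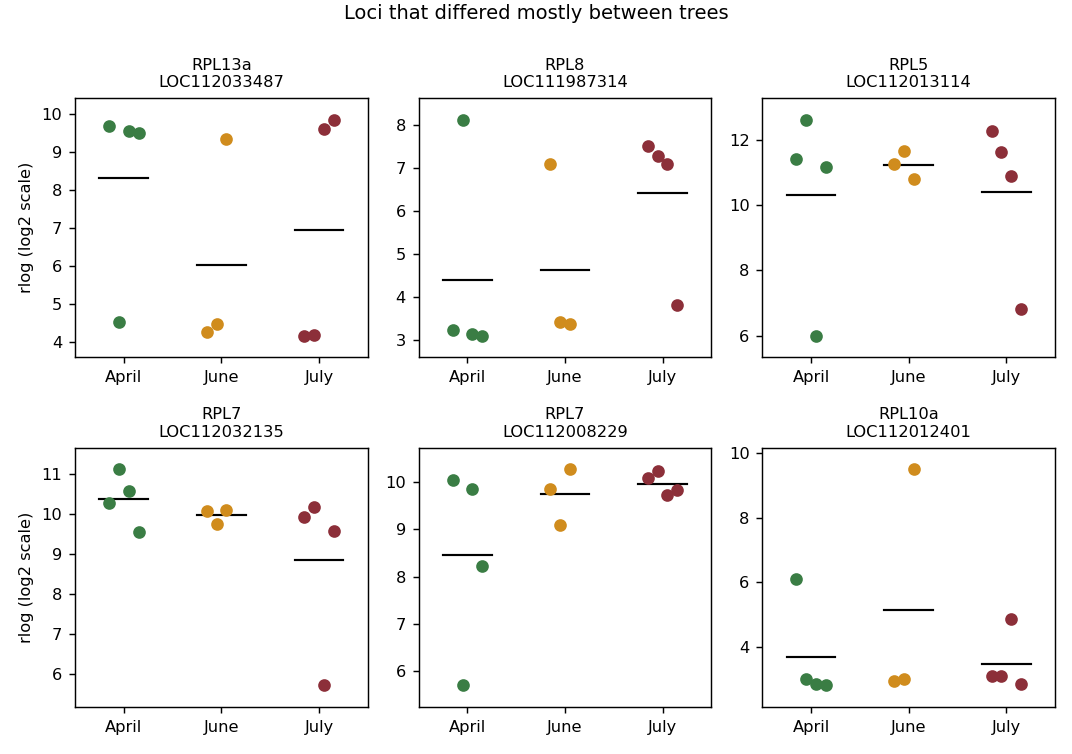
rlog by tree (points) with month mean (lines) for the 6 members whose residual SD within months was above 1. In RPL13a LOC112033487 each month has trees on both levels (4.18 to 4.53 and 9.33 to 9.84) with the month mean between them, whereas in RPL7 LOC112032135 1 July tree (5.72) lies apart and the April and June trees lie together.

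Copies of a family can share reads where their sequences are nearly identical, and 13 pairs of members, all within 1 family, lay within 10 gene numbers of each other (6 pairs with both loci tested). The study speaks of uniquely mapped reads, but how reads that fit several copies were counted is not given in the sources used here, and the sequences were not analysed here. The split between copies is therefore uncertain, above all for RPL4, RPL7, RPL7a, RPL8 and RPL9, and whether the family sums are affected was not tested.

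The rest of the cytosolic ribosome gave similar values. Of 93 tested loci for other large subunit proteins, 25 were lower and 1 higher in June/April at an adjusted p of at most 0.05, with a median log2FC of -0.53. Of 87 loci for small subunit proteins, 25 were lower and 1 higher, with a median of -0.47. The lower loci made up 26.9% and 28.7% of these lists, and over all loci tested 4.23% were lower and 5.57% higher. The medians in July/June were 0.40 and 0.36, and in July/April -0.16 and -0.10. In July/April 8 of the 93 loci of the other large subunit list were lower and 0 higher. Of the 87 loci of the small subunit list, 4 were lower and 1 higher. Over all loci tested 5.73% were lower and 6.31% higher in that comparison. The shares of lower loci in both lists were near this background and are no result about the lists, and the shares of higher loci were below it. Whether proteins L3 to L13a differed from the remaining ribosomal proteins was not tested.

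Over 31 tested loci, factors that assemble the ribosome had a smaller median difference than these lists in June/April (-0.25) and July/June (0.18). In July/April their median difference was the larger one (-0.21). In June/April 20 of them had a negative and 11 a positive log2FC. At an adjusted p of at most 0.05, 5 were lower and 0 higher (16.1% and 0%, against 4.23% and 5.57% of all loci). In July/April 4 were lower and 1 higher (12.9% and 3.23%, against 5.73% and 6.31% of all loci). LOC112004407, annotated to BRX1-1, which works in early 60S assembly, had a log2FC of -1.23 in June/April and -0.78 in July/April (limma, adjusted p = 0.00172 and 0.00582). LOC112000805, annotated to PES1, a scaffold of 60S maturation, had -1.03 and -0.75 in the same comparisons (limma, adjusted p = 0.00462 and 0.00976). LOC112034877, annotated to the nucleolar GTPase NSN1, had -0.80 and -0.62 (limma, adjusted p = 0.00277 and 0.00437). Another NSN1 locus, LOC111992048, had -0.46 and -0.48 and did not pass (limma, adjusted p = 0.104 and 0.0708). Other factors went the other way in June/April without passing. Among these, NOP58 LOC112015674 had 1.65 and 2.12 (limma, adjusted p = 0.144 and 0.0542). REIL1 LOC111985668 had 2.06 and 1.72 (limma, adjusted p = 0.12 and 0.147), and NMD3 LOC112003357 had 0.27 and 0.24 (limma, adjusted p = 0.504 and 0.516). The SD between April trees was 1.52 in LOC112015674 and 1.27 in LOC111985668. Further copies went down without passing: NOP58 LOC111983991 had -1.25 and -1.41, and REIL1 LOC112017410 had -0.24 and -0.21 (limma, adjusted p of 0.18 to 0.273). Fibrillarin 2 LOC111990076 was the factor that was higher in July/April (0.60, limma, adjusted p = 0.0414).

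Other values moved with the months. Markers of phellem (CYP86A1, CYP86B1, GPAT5, ASFT and KCS2, all 5 found) summed on the linear scale to 612349.6 to 1210439 in April trees, 1177946 to 1403278 in June trees and 767143 to 966418 in July trees. Markers of phellogen and cambium (WOX4, KNAT1, ANT, CYCD3;1 and PXY, 4 of 5 with a tested locus and PXY at a mean rlog of -1.45) summed to 15152 to 22792 in April, 7862 to 8915 in June and 7632 to 16094 in July. Of 5 markers of dividing cells, 3 were found, and they summed to 2149.5 to 3112 in April, 1138 to 1809.7 in June and 2084 to 3574 in July. The ranges of June and April thus did not overlap for phellogen and cambium or for dividing cells, and overlapped for phellem. These sums weight the loci with the highest values. Of 6 tested phellogen and cambium loci, 5 were lower in June/April and 1 was higher, CYCD3;1 LOC112038380 (0.06). In July/April 4 were lower and 2 higher, CYCD3;1 LOC112038380 (0.87, limma, adjusted p = 0.00904) and ANT LOC112030198 (0.44, limma, adjusted p = 0.257). Xylem markers (4 of 5 found) summed to 994 to 2554 in April, 3099 to 5256 in June and 2569 to 19144 in July, 1 of 2 phloem markers was found, and the 2 markers of green tissue annotated no locus. The 9 loci of ribosomal RNA held 1.98% to 4.51% of the summed linear values in April trees, 5.40% to 9.26% in June trees and 3.76% to 14.7% in July trees. The part of these values in the result for the members was not tested.

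Of the 60 members, 21 did not reach the minimum level and were not tested. Their mean rlog was under 0 in 13 and between 0 and the minimum in 8, and the member closest to the minimum from below was RPL4 LOC112028386, at 3.05, against 4.01 for LOC112012401 just above it. The untested loci belonged to RPL4, RPL7, RPL8, RPL9, RPL10, RPL10a, RPL11 and RPL12. Among them were all loci annotated to AT1G66580 (RPL10), AT2G01250 and AT2G44120 (RPL7), AT2G18020 (RPL8), AT2G27530 (RPL10a) and AT5G02870 (RPL4). By locus name, the RefSeq gene table listed 31 tested members, 30 of them as protein-coding genes, and the exception was LOC112012401, listed as a miscellaneous RNA. Of the untested members 5 were found, 4 protein-coding and 1 a pseudogene.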

How the data were processed

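RNA-seq of innercork from 11 trees was analysed from 1 table of 32024 loci, with 1 column per tree (April, n = 4; June, n = 3; July, n = 4). Per the labels and the study's methods, the authors checked reads with FastQC 0.11.5, trimmed them with Skewer, removed ribosomal reads with riboPicker, aligned what was left to CorkOak1.0 using STAR 2.5.3a and made the deposited values with the regularized log (rlog) of DESeq2, on a log2 scale. The authors took each Arabidopsis identifier from the single best BLASTP hit in TAIR10. Read counts and depths cannot be recovered from rlog values, so no counting interval or detection limit is given, and shrinkage toward the mean understates changes of low loci. The study speaks of uniquely mapped reads. Whether reads with several matches were counted, and how strand was treated, is not given in the sources used here.

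Months were compared with limma 3.58.1 in R 4.3.3. The model had the month as its only factor and took in all 11 trees, its variances were moderated toward a trend (prior degrees of freedom 2.38), and p-values were adjusted by the Benjamini-Hochberg method across 22426 loci, those whose mean rlog reached log2 of 10 (3.32). The fit was repeated after the mean of the 39 tested members was subtracted from each tree. Summed values and shares use 2 to the power of rlog. Tables and figures were made in Python 3.11.15 with pandas 2.3.3 and matplotlib 3.10.9.

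The members and lists were chosen with earlier results of these data known. The text names the locus of highest mean in each of the 14 families, DEGs, the 3 largest rises and falls per comparison, members that departed from the set and those nearest the minimum (27 loci), and further copies of those families. Counts of loci without overlap, lowest months and family sums without April replicate 2 were added after seeing the data. As alternatives, the minimum level, the pseudocount (1), the normalization (quantile, median), the variance prior, tree weights, the months in the fit, a replicate block, the loss of each single tree and the centre of the set were varied. Promoter motifs and protein identities were planned but not analysed here, and the RefSeq gene table of another assembly, Cork oak 2.0, was used for biotypes only, with no coordinates.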

Additional observations from a re-analysis of the deposited data

Results flagged for a closer look

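In 12 of 54 groups of 4 trees 1 tree lay far from the other 3, with a gap past the critical value of Dixon's test for 4 values (chance gives about 1 in 20). The groups are the April and July trees of the 27 named loci, some of which were named for a large difference between months, so this share is no fair sample of all members. April replicate 2 was that tree in 7 of them. Its rlog was 8.13 in RPL8 LOC111987314 (3.10 to 3.23 in the other April trees), 13.17 in RPL11 LOC111995849 (12.81 to 12.86), 11.84 in RPL8 LOC111996658 (11.14 to 11.20), 12.26 in RPL8 LOC111996662 (11.72 to 11.80), 14.89 in RPL10 LOC112005106 (14.17 to 14.20) and 12.72 in RPL12 LOC112036539 (11.91 to 11.97). In RPL13a LOC112033487 it was the low tree, with 4.53 against 9.50 to 9.68.

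The other 5 cases were spread over 4 trees. RPL10a LOC112012401 had 6.11 in April replicate 1 (2.80 to 3.00 in the other April trees) and 4.88 in July replicate 3 (2.86 to 3.09 in the other July trees). RPL7 LOC112032135 had 5.72 in July replicate 3 (9.56 to 10.17), RPL8 LOC111987314 had 3.80 in July replicate 4 (7.09 to 7.501), and RPL6 LOC112004852 had 13.48 in July replicate 1 (13.29 to 13.31).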

How the results depend on the processing

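The June/April median of the members stayed below 0 throughout, but the direction of single members did not always hold. Without April replicate 2, 14 members were higher in June than in April, against 8 with all trees. The median June/April log2FC of the members was -0.52 to -0.26 when single trees were left out, -0.59 with quantile normalization, -0.36 with median centring and -0.49 with the replicate number as a block, and it came to -0.089 when all 60 members entered with no minimum level. The median July/June log2FC ran from 0.23 to 0.49. July/April medians lay between -0.14 and 0.09 over all alternatives and were above 0 without April replicate 2 (0.09), without July replicate 3 (0.0051) and with tree weights (0.05).

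Counts moved more. Members lower in June/April at an adjusted p of at most 0.05 numbered 4 to 13 when single trees were left out and 16 with tree weights. DEGs in June/April numbered 0 to 2 when single trees were left out, 1 with no minimum level or quantile normalization, and 0 with median centring, with only the 2 months compared or with the replicate block, under which 7 members remained lower at the looser threshold. In July/April the lower members numbered 1 to 5 and the higher ones 1 to 4 when single trees were left out, with 5 lower under quantile normalization, 5 lower and 4 higher under tree weights, and 0 to 2 DEGs without single trees, or 1 with tree weights. Departures from the set in June/April numbered 0 to 5 when single trees were left out, 22 with no minimum level, 14 with tree weights, 2 with no trend on the mean or robust moderation, 7 with the other large subunit list as centre, 1 with the replicate block and 0 with only the 2 months compared. In July/April departures numbered 0 to 5 without single trees, 6 with a minimum of log2 of 100, 10 with tree weights and 1 with no trend, with only the 2 months or with the replicate block. In July/June they numbered 0 without single trees, 3 with tree weights and 1 with the median of the members as centre. The 21 combinations of a locus and a comparison that were called in the main fit, or relative to the set, were followed over the alternatives. Of their 454 values, 322 kept the call, 132 lost it and 0 reversed. As they were picked by their calls in these same data, a reversal was unlikely beforehand. Loci that were not called were not counted.

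Replicate numbers do not pair the trees, since each tree was sampled in a single month. Same-numbered trees of different months had correlations of -0.0772 to 0.211 (10 pairs, mean 0.0241, against -0.00818 for other pairs). The best match had the tree's own number in 7 of 20 cases. The titles number the June trees otherwise than the library names do, and the title numbers were used here and in the replicate block. With 3 or 4 trees per month and no counts, precision rests on the spread between trees alone, which was above 1 in 6 members.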
